A study of Mus musculus with 16 samples.

Results

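The NF-kB subunits and their feedback inhibitors were followed across 16 mouse B cell samples, each measured on 1 Affymetrix mouse exon array. The list holds 10 genes: the subunits Rel, Rela, Relb, Nfkb1 and Nfkb2, and the inhibitors Nfkbia, Nfkbie, Nfkbiz, Tnfaip3 and Nkiras2. A member was taken by its gene symbol, from transcript clusters that carry a single symbol, and each member found had 1 such cluster. This gave 8 members, 3 subunits and 5 inhibitors, among 14860 genes, and Relb, Nfkb1 and the p53 gene itself are not analysed here. The samples were normal B cells from spleen and Myc-induced B lymphoma cells from lymph nodes of C57BL6/129 hybrid mice, in 4 groups. There were 2 normal samples and 6 lymphomas with the p53(-/-) genotype (p53-null) and 2 normal samples and 6 lymphomas with the p53(246/-) genotype (p53-246), so no group carried a wild-type p53 allele. The 246 allele is a mutant p53, and both normal and lymphoma cells were purified by magnetic immuno-depletion. Spleen and lymph node differed exactly as normal and lymphoma did, so tissue and cell state cannot be told apart. The labels used here name neither the promoter that drives Myc nor the age of the mice. They do not say that samples of a group are different animals, and p-values cover the spread among these samples alone.

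NF-kB is a family of transcription factors that bind DNA as dimers of Rel, Rela, Relb and the processed products of Nfkb1 and Nfkb2. In resting cells IkB proteins hold the dimers in the cytoplasm, and signals from the B cell receptor, CD40, BAFF receptor and Toll-like receptors release them. The released dimers switch on genes of their own inhibitors, which closes a feedback loop. In B cells the c-Rel protein is known for its part in activation and division, and the p52 product of Nfkb2 for survival downstream of BAFF receptor and CD40.

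The promoters of the members that fell in lymphomas are shown because they carry the binding letters of NF-kB itself. The RefSeq promoter table (GRCm38.p6, 250 bases before to 50 after each start site) held 10 promoters of 7 of the 8 measured members, all but Nfkbiz. On both strands the kappaB consensus, a motif of 10 bases, was searched for. It was present in 7 of the 10 promoters, which belong to 5 of 7 genes, against 8.46% of 32851 promoters and 9.55% of 27025 genes in the table. The 5 genes were Rel, Nfkb2, Nfkbia, Nfkbie and Tnfaip3, and no promoter of Rela or Nkiras2 held it in this window. Capitals below mark matches, overlapping matches run together, and 1 promoter is printed per gene, 5′ to 3′ on the gene's strand.
Rel, chr11:23770920-23771219, strand -: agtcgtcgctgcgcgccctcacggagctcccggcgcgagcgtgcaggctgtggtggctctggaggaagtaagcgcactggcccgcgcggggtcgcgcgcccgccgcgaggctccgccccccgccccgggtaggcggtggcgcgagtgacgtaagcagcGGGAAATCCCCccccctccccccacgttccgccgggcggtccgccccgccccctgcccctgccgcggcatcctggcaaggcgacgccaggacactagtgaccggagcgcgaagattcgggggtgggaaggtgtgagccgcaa
Nfkb2, chr19:46304487-46304786, strand +: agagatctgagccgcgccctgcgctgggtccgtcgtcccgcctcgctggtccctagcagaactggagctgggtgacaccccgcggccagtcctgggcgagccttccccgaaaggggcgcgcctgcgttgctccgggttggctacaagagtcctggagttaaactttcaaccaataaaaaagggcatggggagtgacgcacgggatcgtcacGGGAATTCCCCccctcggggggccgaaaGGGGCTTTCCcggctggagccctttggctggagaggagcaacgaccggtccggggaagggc
Nfkbia, chr12:55492598-55492897, strand -: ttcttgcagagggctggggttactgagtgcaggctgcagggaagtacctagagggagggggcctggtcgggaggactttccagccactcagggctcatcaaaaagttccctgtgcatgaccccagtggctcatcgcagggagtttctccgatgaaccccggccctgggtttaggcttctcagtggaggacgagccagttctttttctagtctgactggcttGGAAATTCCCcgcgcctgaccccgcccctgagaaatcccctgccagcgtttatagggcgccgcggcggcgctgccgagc
Nfkbie, chr17:45555450-45555749, strand +: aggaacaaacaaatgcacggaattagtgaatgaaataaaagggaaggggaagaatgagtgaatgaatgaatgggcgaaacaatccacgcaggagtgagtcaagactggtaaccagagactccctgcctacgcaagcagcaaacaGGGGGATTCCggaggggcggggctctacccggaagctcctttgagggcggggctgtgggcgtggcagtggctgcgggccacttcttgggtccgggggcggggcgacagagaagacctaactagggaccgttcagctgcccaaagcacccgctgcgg
Tnfaip3, chr10:19015361-19015660, strand -: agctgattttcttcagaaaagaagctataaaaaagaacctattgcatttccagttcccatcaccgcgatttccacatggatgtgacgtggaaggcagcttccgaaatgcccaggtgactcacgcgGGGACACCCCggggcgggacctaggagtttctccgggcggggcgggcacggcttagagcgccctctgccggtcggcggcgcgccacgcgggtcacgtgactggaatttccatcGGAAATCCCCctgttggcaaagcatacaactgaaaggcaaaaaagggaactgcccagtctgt
Counted from the start site, the first match began at position -92 in the Rel promoter and at -39 in Nfkb2. It began at -29 in Nfkbia and at -106 in Nfkbie, and Tnfaip3 had matches at -125 and -12. A match is a description of letters and not a measured binding site.

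Values are the authors' processed intensities on a log2 scale, and an adjusted p under 0.05 in limma, over all 14860 genes, counts as past the threshold. Array medians over all transcript clusters ran from 5.06 to 5.35. On 2 arrays, p53-null normal 1 and p53-246 lymphoma 6, values were squeezed together, with a standard deviation of 1.73 and 1.71 against at least 1.84 on the others. They are called the narrow arrays. A background cutoff of 5.16 was set as the 95th percentile of mean values over 801 olfactory and vomeronasal receptor genes. All 12 measured B cell markers lay above it in normal cells and 9 did so in lymphomas, with Cr2, Fcer2a and Cxcr5 below it. Of these 12 markers 11 were lower in lymphomas than in normal cells and 0 higher. Of the macrophage and monocyte markers 7 of 14 were lower and 0 higher, with list means of 5.78 to 6.33 in normal samples and at most 5.68 in lymphomas. In lymphomas 11 of the 14 were at or below the cutoff, as were 7 of 14 in normal cells. Natural killer cell markers were lower in 7 of 9, and neutrophil markers higher in 7 of 13 and lower in 0. T cell markers were higher in 1 and lower in 3 of 14, and dendritic cell markers lower in 4 of 7. Platelet markers were lower in 6 of 7, among them Ppbp with means of 10.2 in normal cells and 4.903 in lymphomas, and stroma and endothelium markers in 2 of 11. Over all genes 38.3% passed in this comparison, 17.8% lower and 20.4% higher. Beside these shares the T cell and the stroma and endothelium counts are no result about those lists. The part of all these cell types in the results below was not tested.

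The subunits and inhibitors were lower in lymphomas than in normal B cells in 6 of 8 members, and 0 were higher. Over all genes 38.3% passed, 17.8% lower and 20.4% higher. The 6 were the subunits Rel and Nfkb2 and the inhibitors Nfkbia, Nfkbie, Nfkbiz and Tnfaip3. The median log2 difference of the 8 members, lymphoma minus normal with genotypes averaged, was -1.47, against -0.09 over all genes. In 5 members no lymphoma reached the lowest normal array, a separation that 22.3% of all genes showed in either direction. In these bulk samples fewer cells that carry a transcript and less of it per cell cannot be told apart.

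**Figure D1:**
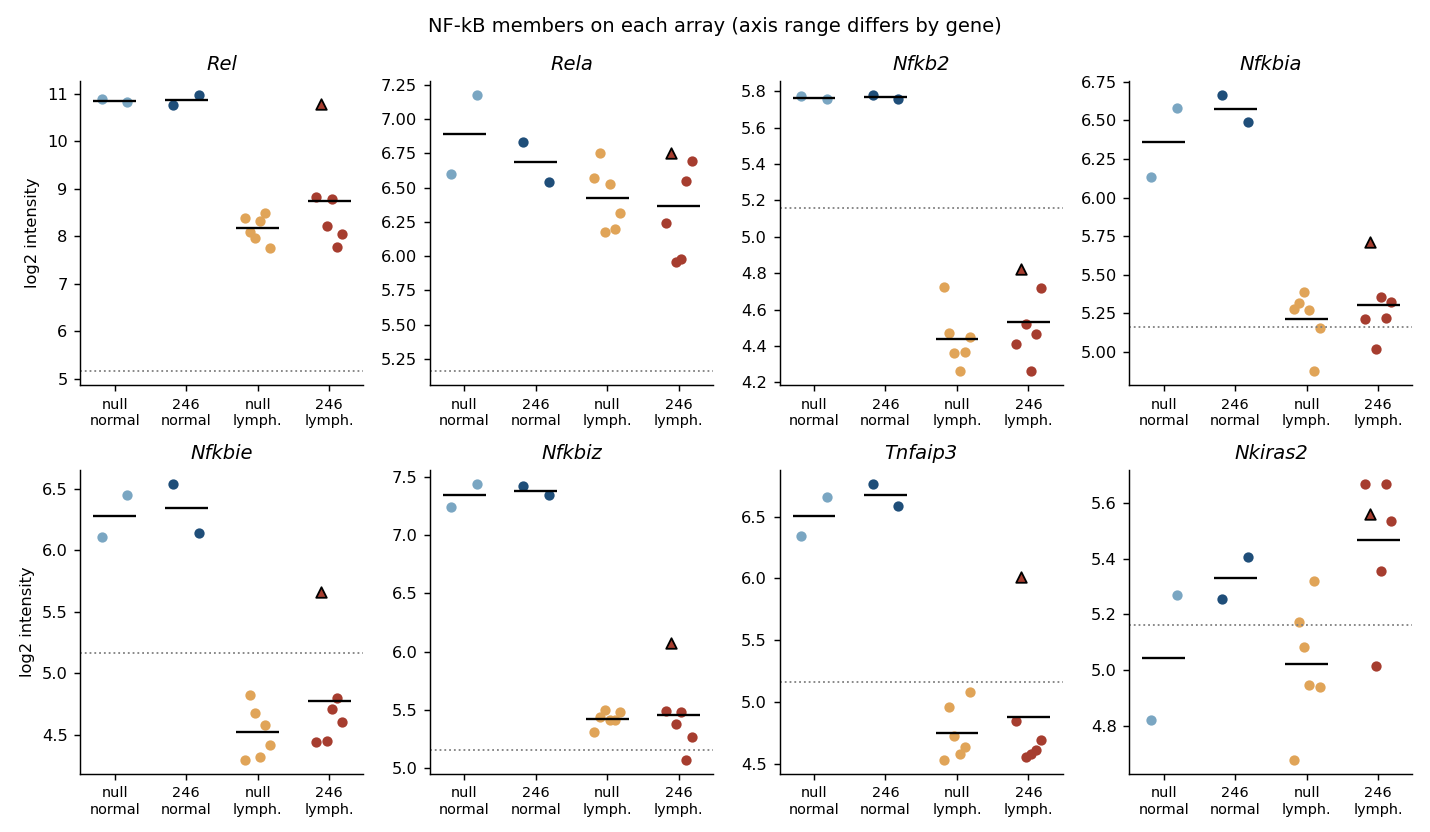
Log2 intensity (y axis, range differs by gene) of the 8 members on each array, in 4 groups (x axis: p53-null and p53-246 normal B cells, p53-null and p53-246 lymphomas). Points are arrays, bars are group means, the triangle is p53-246 lymphoma 2 and the dotted line is the background cutoff of 5.16. The triangle stands at 10.785 for Rel, beside the normal arrays, while the other lymphomas lie between 7.748 and 8.827.

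Rel, which encodes c-Rel, stood at 10.880 and 10.817 in the p53-null normal samples and at 10.752 and 10.973 in the p53-246 ones. The p53-null lymphomas ran from 7.748 to 8.494 with a median of 8.209, and the p53-246 lymphomas from 7.775 to 10.785 with a median of 8.500. All p53-null lymphomas lay far below the normal arrays, and 1 p53-246 lymphoma lay among them. Averaged over genotypes, Rel fell by 2.40 in log2 (SE 0.36, adjusted p = 3.6e-05, limma), which is 5.29-fold, and 11 of 12 lymphomas were below the lowest normal array. Without p53-246 lymphoma 2, the array at 10.785, Rel fell by 2.61 (SE 0.18, adjusted p = 7.9e-09).

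Nfkb2 encodes the p100 precursor, which acts as an inhibitor until it is cut to the p52 subunit. Normal samples read 5.775 and 5.756 without p53 and 5.781 and 5.756 with the 246 allele. Lymphomas without p53 ran from 4.264 to 4.726 with a median of 4.406, and those with the 246 allele from 4.261 to 4.825 with a median of 4.493. The cell types did not overlap. Nfkb2 fell by 1.28 (SE 0.11, 2.43-fold, adjusted p = 3.7e-08, limma), and since every lymphoma lay under the background cutoff, the size of the fall may be understated.

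Rela encodes p65, the subunit that is broadly expressed and carries a strong activation domain. Normal samples read 6.600 and 7.177 without p53 and 6.833 and 6.542 with the 246 allele. The p53-null lymphomas ran from 6.177 to 6.754 (median 6.420) and the p53-246 lymphomas from 5.961 to 6.750 (median 6.395). The ranges overlapped, with 7 of 12 lymphomas below the lowest normal array. The difference of -0.39 (SE 0.16, 95% interval -0.74 to -0.05) had an adjusted p of 0.0664 in limma and an exact permutation p of 0.0357 over 1820 arrangements (two-sided). The call depends on the setting: without the narrow arrays the difference was -0.57 with an adjusted p of 0.0192, and with genes near background removed the adjusted p was 0.0480. Centring arrays on their median gave -0.26 (adjusted p = 0.231), and array spread in the fit gave -0.27 (adjusted p = 0.272).

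Nfkbia encodes IkB alpha, the classic inhibitor that is degraded on stimulation and made anew by NF-kB. Normal p53-null samples read 6.133 and 6.580, and normal p53-246 samples 6.665 and 6.486. Its lymphoma values were 4.875 to 5.386 (median 5.275) in p53-null and 5.018 to 5.712 (median 5.273) in p53-246. Every lymphoma lay below every normal array, and Nfkbia fell by 1.21 (SE 0.13, 2.31-fold, adjusted p = 5.1e-07, limma).

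Nfkbie encodes IkB epsilon, an inhibitor with slower kinetics that binds c-Rel and p65 dimers. Normal samples read 6.111 and 6.451 (p53-null) and 6.545 and 6.143 (p53-246). The p53-null lymphomas spanned 4.293 to 4.824 (median 4.495) and the p53-246 lymphomas 4.439 to 5.661 (median 4.655). The groups of the different cell types did not overlap, and 1 of 12 lymphomas lay above the background cutoff. Nfkbie fell by 1.67 (SE 0.18, 3.17-fold, adjusted p = 8.6e-07, limma), and this size too may be understated.

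Nfkbiz encodes IkB zeta, a nuclear member of the family that acts on a subset of NF-kB targets. The p53-null normal samples were at 7.245 and 7.442, the p53-246 normal samples at 7.418 and 7.341. The p53-null lymphomas were tightly grouped from 5.309 to 5.496 (median 5.429), and the p53-246 lymphomas ran from 5.072 to 6.072 (median 5.433). The gap between the lowest normal array and the highest lymphoma was 1.17, the widest of the 8 members. Nfkbiz fell by 1.92 (SE 0.13, 3.78-fold, adjusted p = 2.8e-09, limma).

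Tnfaip3 encodes A20, a ubiquitin-editing enzyme that shuts off signalling upstream of the IkB kinase. Normal samples stood at 6.345 and 6.660 (p53-null) and at 6.767 and 6.583 (p53-246). Lymphomas lay at 4.530 to 5.080 (median 4.682) in p53-null and at 4.551 to 6.011 (median 4.649) in p53-246. Apart from p53-246 lymphoma 2 at 6.011, all lymphomas were under the background cutoff. Tnfaip3 fell by 1.77 (SE 0.21, 3.42-fold, adjusted p = 1.9e-06, limma), a size that may be understated. For Nfkb2, Nfkbia, Nfkbie, Nfkbiz and Tnfaip3 the exact permutation p of lymphomas against normal arrays was 0.000549, the smallest that 1820 arrangements can give.

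Nkiras2 encodes kappaB-Ras2, a small GTPase that binds IkB proteins and slows their degradation. It was measured close to background, with 4.822 and 5.269 in normal p53-null samples and 5.257 and 5.405 in normal p53-246 samples. The p53-null lymphomas ran from 4.678 to 5.321 (median 5.016) and the p53-246 lymphomas from 5.015 to 5.670 (median 5.548). Lymphomas and normal arrays overlapped, and the difference of 0.06 (SE 0.13, 95% interval -0.23 to 0.34) did not pass (adjusted p = 0.761, limma). Its sign turned without the narrow arrays, where it was -0.06. Centring each array on its median moves every difference of this comparison up by 0.13 and turns the sign of no member.

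The order of the 4 groups was the same in the 6 members that fell: p53-246 normal, p53-null normal, p53-246 lymphoma and p53-null lymphoma, from high to low. In each of them the step from normal to lymphoma exceeded the larger of the neighbouring standard deviations, and the steps between genotypes within a cell type did not. The order of the lymphoma genotypes rested on p53-246 lymphoma 2 for Nfkbiz and Tnfaip3, where it turned without that array. For the other 4 the order held, but the difference shrank without that array. It went from 0.57 to 0.16 for Rel and from 0.10 to 0.04 for Nfkb2. For Nfkbia it went from 0.09 to 0.01, and for Nfkbie from 0.26 to 0.08. The step between normal genotypes was 0.003 for Nfkb2. Without the narrow p53-null normal array the order of the normal genotypes turned for Nfkbia, Nfkbie and Nfkbiz. There the other p53-null normal array read 6.58, 6.451 and 7.442, above the p53-246 normal means of 6.576, 6.344 and 7.38. For Rel, Nfkb2 and Tnfaip3 the normal order held without the narrow array. For Rela the order of genotypes was turned in both cell types, its ranges overlapped at every step, and the step from p53-246 normal to p53-null lymphoma (0.27) exceeded the larger standard deviation (0.23). For Nkiras2 no step exceeded the larger standard deviation.

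Each genotype was also set against its own normal samples, and the same 6 members fell in both. In p53-null cells 31.9% of all genes passed and 14.4% were lower, and in p53-246 cells 25.2% passed and 10.6% were lower. The falls on the log2 scale were close in size for Nfkbiz, with -1.92 (SE 0.18) in both genotypes. They were -1.33 and -1.23 (SE 0.15 each) for Nfkb2 in p53-null and p53-246 cells, and -1.75 and -1.80 (SE 0.29 each) for Tnfaip3. Rel gave -2.68 and -2.13 (SE 0.51 each). In p53-246 cells its call was lost without p53-246 normal sample 2 (difference -2.02, adjusted p = 0.0625), and without p53-246 lymphoma 2 the difference was -2.54 (SE 0.26, adjusted p = 1.9e-06). The interaction of genotype and cell type passed in 0 of 8 members and in 0% of all genes (limma), with 0 members and 3.63% of genes at an unadjusted p under 0.05. Its 95% interval for Rel ran from -0.98 to 2.08, and for Nfkbiz from -0.55 to 0.55.

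**Figure D2:**
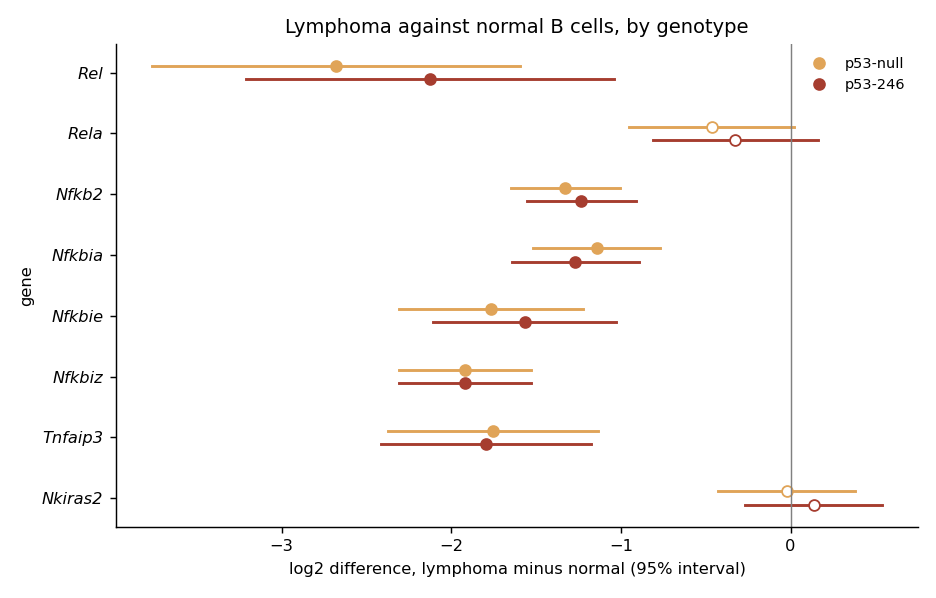
Log2 difference of lymphoma minus normal B cells (x axis) for the 8 members (y axis) in p53-null and p53-246 cells, with 95% intervals from limma as lines. Filled points passed the adjusted threshold and open points did not: the same 6 members are filled in both genotypes, and Rela and Nkiras2 are open.

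Between p53-246 and p53-null lymphomas none of the 8 members passed, and neither did any gene of the array (0%, limma, smallest adjusted p = 0.994). At an unadjusted p under 0.05 stood 1 of 8 members and 2.99% of all genes, and an unmoderated linear model gave 0 called and the same count of 1 member. The member was Nkiras2, the kappaB-Ras2 gene. The p53-null lymphomas 1 to 6 read 4.678, 5.173, 5.083, 4.948, 5.321 and 4.938. The p53-246 lymphomas 1 to 6 read 5.667, 5.561, 5.015, 5.356, 5.670 and 5.535. All 8 members overlapped between the genotypes, as did all but 0.0942% of genes. For Nkiras2 they overlapped through p53-246 lymphoma 3 and p53-null lymphomas 2, 3 and 5. The log2 difference, p53-246 minus p53-null, was 0.44 (SE 0.13, 95% interval 0.16 to 0.73, unadjusted p = 0.0044, adjusted p = 0.994), and the exact permutation p was 0.0130 over 924 arrangements. In p53-null lymphomas 2 of 6 arrays lay above the background cutoff, against 5 of 6 in p53-246 lymphomas. In normal cells the Nkiras2 difference was 0.29 (95% interval -0.21 to 0.78).

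Nfkbiz, the nuclear IkB, was tight among p53-null lymphomas 1 to 6, at 5.309, 5.441, 5.496, 5.417, 5.411 and 5.480. The p53-246 lymphomas 1 to 6 read 5.488, 6.072, 5.383, 5.482, 5.072 and 5.267. The genotype difference of 0.04 (95% interval -0.24 to 0.31) did not pass, and the spread was wider in p53-246 lymphomas (SD 0.34) than in p53-null ones (SD 0.07). Without p53-246 lymphoma 2, a setting chosen after seeing the data, the former was 0.17, and the difference in spread was not tested. For Rel the genotype difference was 0.57 (95% interval -0.20 to 1.33), and 0.16 without p53-246 lymphoma 2. When that lymphoma was left out the sign turned for Tnfaip3, from 0.13 to -0.10, and for Nfkbiz, to -0.09. In normal cells 0 of 8 members and 0% of all genes passed (limma). At an unadjusted p under 0.05 stood 0 members and 3.4% of genes. With 2 samples to a group the intervals were wide, from -1.31 to 1.34 for Rel. They use a variance shared by the 4 groups, so the width for Rel does not describe its normal samples alone. The SD of Rel was 0.045 in p53-null normal, 0.156 in p53-246 normal and 1.086 in p53-246 lymphoma samples.

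**Figure D3:**
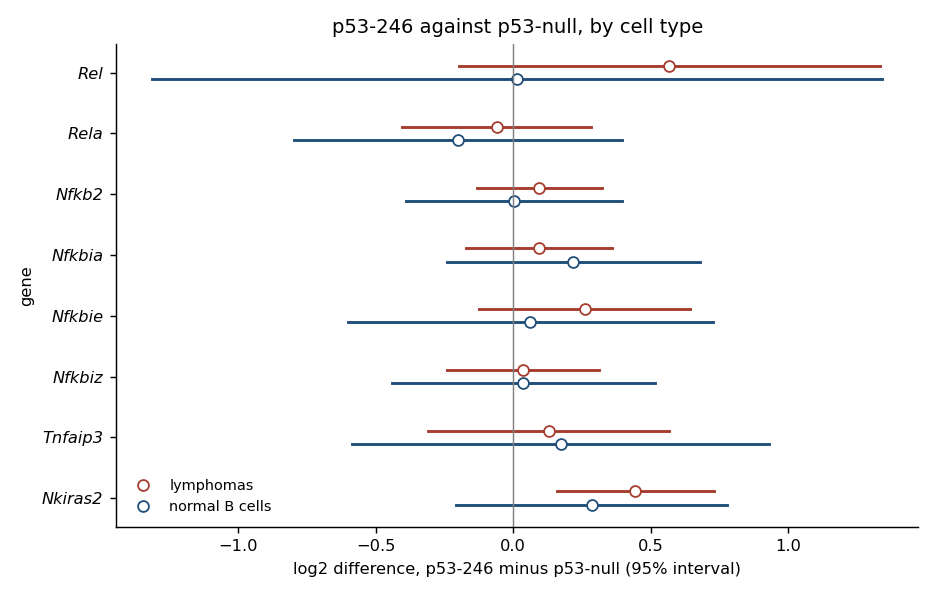
Log2 difference of p53-246 minus p53-null (x axis) for the 8 members (y axis), in lymphomas and in normal B cells, with 95% intervals from limma. All points are open, since none passed the adjusted threshold, and the interval that leaves out 0 is that of Nkiras2 in lymphomas (0.16 to 0.73).

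A single lymphoma stood apart in the NF-kB genes. In p53-246 lymphoma 2 Rel read 10.785, 2.57 above the median of the other 11 lymphomas and within the range of the normal arrays (10.752 to 10.973). In the same lymphoma 6 of 8 members were the highest of the 12 lymphomas, against 6.76% of all genes. These were Rel, Nfkb2, Nfkbia, Nfkbie, Nfkbiz and Tnfaip3, the members that were lower in lymphomas as a whole. Tnfaip3 was 1.37, Nfkbie 1.08 and Nfkbiz 0.65 above the median of the other lymphomas, and Nfkbia and Nfkb2 0.44 and 0.38 above it. Unlike Rel, these 5 stayed below the normal arrays. Rela had rank 2 of the 12 with 6.750, and Nkiras2 rank 3 with 5.561. The lymphoma was singled out after its values were seen, so its values here are a description.

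Genes next to Rel were high in that lymphoma too. On chromosome 11, in the gene order of GRCm38.p6, an unbroken run of 21 genes above the background cutoff, from Sertad2 to Vrk2 with 16 before and 4 after Rel, had its highest value of the 12 lymphomas there. Their differences from the median of the other lymphomas ran from 0.88 to 2.57 with a median of 1.58. The neighbour Papolg, a poly(A) polymerase, was 2.48 higher, and Pus10 and Pex13 on the other side of Rel were 2.08 and 2.09 higher. The export receptor Xpo1 read 11.623 against 10.430 to 10.904 in the other lymphomas. Peli1, a ubiquitin ligase of Toll-like receptor signalling, read 9.994 against 6.891 to 8.347. Past Vrk2 the next gene, Pnpt1, was 0.15 higher and not highest. Farther along, Ppp4r3b, Ccdc88a, Rtn4, Psme4, Chac2, Cpeb4 and Snrnp25 were again highest of the 12 lymphomas. Among these, Psme4 was 1.25, Cpeb4 0.88 and Snrnp25 0.87 above the median of the others. Cfap36, Prorsd1, Mtif2, Sptbn1, Erlec1, Gpr75, Asb3 and Mpg were not highest. On the other side, Slc1a4 next to Sertad2 was 0.32 higher and not the highest of the 12 lymphomas. Beyond it Cep68 and Rab1a were again highest, by 1.65 and 1.08, and Spred2 was 0.54 higher and not highest. Of the 41 genes from 20 places before to 20 after Rel, 30 were highest in this lymphoma and 21 were over 1 above the median of the others. The shares over all 7304 genes above the cutoff were 7.63% and 1.51%. In the other 11 lymphomas 0 to 4 of the 41 genes were highest and 0 or 1 exceeded the median by 1. The arrays measure RNA, and the number of DNA copies was not tested.

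**Figure D4:**
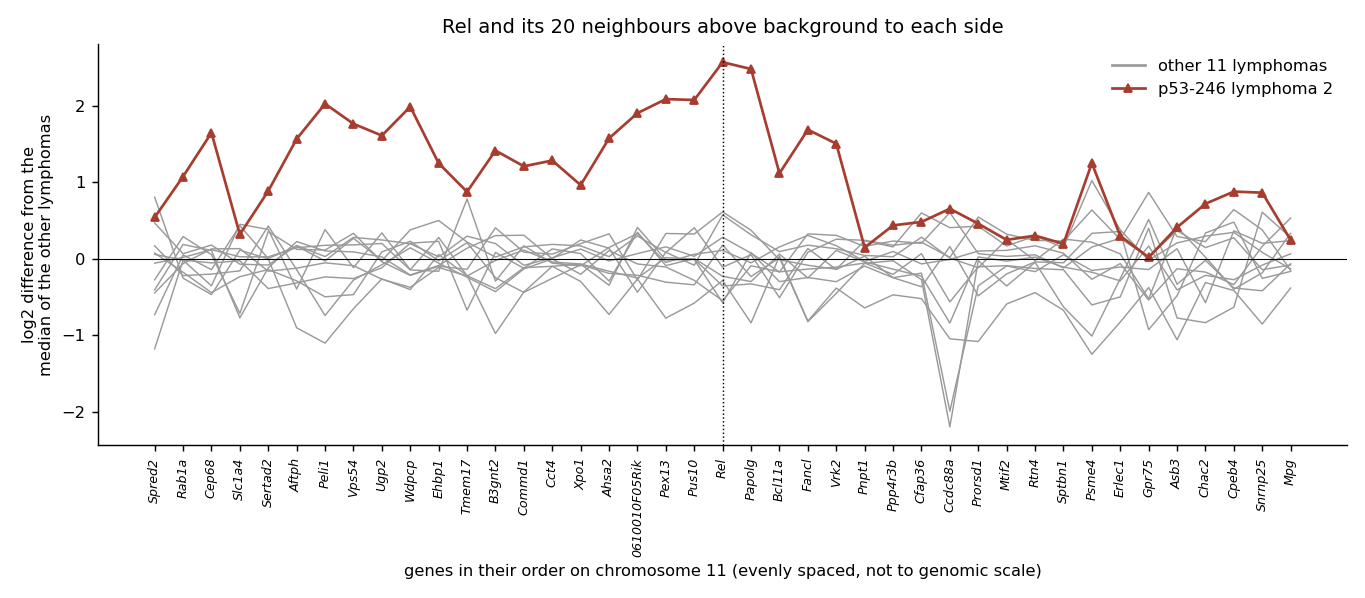
Log2 difference of each lymphoma from the median of the other 11 lymphomas (y axis) for Rel and the 20 genes above background to each side of it on chromosome 11 (x axis, in gene order, evenly spaced). The line of p53-246 lymphoma 2 stays between 0.88 and 2.57 from Sertad2 to Vrk2 and drops to 0.15 at Pnpt1. Farther along it reaches 1.25 at Psme4. The other lymphomas scatter around 0.

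Targets of NF-kB were looked at in the same lymphoma. Of 37 measured target genes 15 were highest there, against 6.76% of all genes and 0 to 5 of the 37 in each other lymphoma. Their median difference from the other lymphomas was 0.28, against 0.02 over all genes. Among the 15, Cd83, Fas, Ier3, Traf1 and Bcl2l1 read 4.929 to 5.147 there, under the background cutoff of 5.16. Ltb, the lymphotoxin beta gene, read 7.448 against a median of 4.537, near the normal mean of 7.603. Cd80, a costimulatory ligand, read 7.588 against 4.755, above the normal mean of 5.341. Ebi3, Birc3 and Cd40 were 1.47, 1.38 and 1.23 above the median of the others, and all 3 were highest of the 12. In the other direction, Sod2 was 1 of 2 targets that were lowest of the 12 there, with 7.054 against a median of 8.167, and the other was Slc2a1. Of the 18 receptors that signal to NF-kB 1 was highest there. Macrophage and monocyte markers were highest in 2 of 14 and mature B cell markers in 0 of 12. Natural killer cell markers were highest in 2 of 9, with a median 0.49 above the others, and neutrophil markers in 1 of 13, with a median 0.51 above. Their part in these values was not tested.

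Across the 12 lymphomas the members were compared with each other in 28 pairs. All 28 Pearson correlations were above 0 (0.0865 to 0.863), and 0 passed after adjustment over the pairs (permutation test, 100000 resamples). The highest was Rel with Nfkbiz (r = 0.863, rho = 0.406, permutation p = 0.00771 and 0.189, adjusted p = 0.108 and 0.732, n = 12). The positive signs rested on few samples. Without the 2 lymphomas farthest from the median of the first gene, r was below 0 in 11 of the 28 pairs, and 4 of the 28 rank correlations were below 0 with all lymphomas. For Rel and Nfkbiz, without the 2 lymphomas farthest from the median of Rel, r was 0.341. Within the genotypes it was -0.748 in the 6 p53-null and 0.985 in the 6 p53-246 lymphomas.

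The genes most like each member over the 12 lymphomas, after the mean of each genotype was taken out, are given as a description. For Rel they were Rab1a (r = 0.943, rho = 0.783) and Xpo1 (r = 0.939, rho = 0.636), both near it on chromosome 11. For Nfkbiz they were Rab1a (r = 0.963, rho = 0.678) and Peli1 (r = 0.939, rho = 0.748), and for Tnfaip3 the target gene Ltb (r = 0.971, rho = 0.867) and Rcor2 (r = 0.969, rho = 0.874). Rel, Nfkbiz, Tnfaip3, Rab1a, Xpo1, Peli1 and Ltb were all highest in p53-246 lymphoma 2. How far their r rests on that lymphoma was not tested. Each gene named was picked as the most alike among all 14860 genes. Rela was closest to Dppa2 and Syvn1 (r = 0.983 and 0.951), Nfkb2 to Tbc1d12 and Hsf4 (0.965 and 0.956) and Nfkbia to Tmem179b and Otos (0.898 and 0.883). Nfkbie was closest to Olfr1491 and Trim11 (0.953 and 0.905), and Nkiras2 to Ercc2 and B4galt3 (0.913 and 0.906). Dppa2, Tbc1d12, Hsf4, Otos, Olfr1491, Ercc2 and B4galt3 lie below the background cutoff.

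The rest of the pathway was described by 5 further gene lists in the comparison of lymphomas with normal cells. For 3 of the lists most of the genes that passed were lower and the median lay well under the -0.09 of all genes. These counts stand beside 38.3% of all genes past the threshold, 17.8% lower and 20.4% higher. The receptors that signal to NF-kB had 0 higher and 10 lower of 18 (median -0.73), with differences of -5.13 (SE 0.33) for Tlr7, -3.77 (SE 0.36) for Tlr1 and -2.67 (SE 0.19) for Cd40.

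Further IkB proteins and negative regulators had 1 higher and 10 lower of 17 (median -0.58). Bcl3, a nuclear IkB protein that works with p50 and p52, fell by 1.19 (SE 0.16), the ubiquitin ligase Itch by 1.17 (SE 0.16) and the deubiquitinase Cyld by 1.12 (SE 0.25). Nkiras1, the relative of Nkiras2, fell by 0.61 (adjusted p = 0.0104, limma) and Nfkbid by 0.75, while Nfkbib, which encodes IkB beta, was at -0.24 (adjusted p = 0.160). The repressor Nkrf rose by 1.54 (SE 0.14). The IkB kinases and ubiquitin adaptors had 1 higher and 5 lower of 17 (median -0.20), so that 6 of 17 passed, a share near the 38.3% of all genes and no result about this list. Birc3, a ubiquitin ligase and itself a target, fell by 1.86 (SE 0.27), Traf5 by 1.62 (SE 0.20) and Rnf31 of the linear ubiquitin complex by 0.75 (SE 0.12), and the kinase Map3k7 rose by 0.51 (SE 0.13). The kinase Ikbkb and its scaffold Ikbkg were at -0.32 and -0.07 and did not pass. This list depends on the setting: 9 were lower after quantile normalization, 10 with array spread in the fit and 3 with genes near background removed.

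Target genes had 2 higher and 23 lower of 37 (median -0.81), against 20.4% higher and 17.8% lower over all genes. Differences were -4.08 (SE 0.11) for Cxcr5, the chemokine receptor that guides B cells to follicles, -4.04 (SE 0.48) for Plek and -3.39 (SE 0.15) for the activation marker Cd83. Lymphoma means of Cxcr5 and Cd83 lay under the background cutoff. The mitochondrial superoxide dismutase Sod2 rose by 2.49 (SE 0.18), from a mean of 5.46 to 7.95, and Gadd45b rose by 0.63 (SE 0.17) with both means under the cutoff. With genes near background removed, 15 targets were lower and 1 higher. Nuclear partners had 2 higher and 1 lower of 5 (median -0.15), with Hdac3 higher by 1.18 (SE 0.18), Cdk9 by 0.49 (SE 0.16) and the acetyltransferase Ep300 at -0.70 (SE 0.14). All genes named as changed have an adjusted p under 0.05 in limma. Cd40 and Birc3 stand in the target list as well as in their own. Between the lymphoma genotypes 0 genes of these 5 lists passed, and 3 of 37 targets (Sod2, Cd80 and Cd86) had an unadjusted p under 0.05, against 2.99% of all genes. Their differences, p53-246 minus p53-null, were -0.83, 0.93 and 0.66. Without p53-246 lymphoma 2, a setting chosen after seeing the data, they were -0.73, 0.49 and 0.53.

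**Figure D5:**
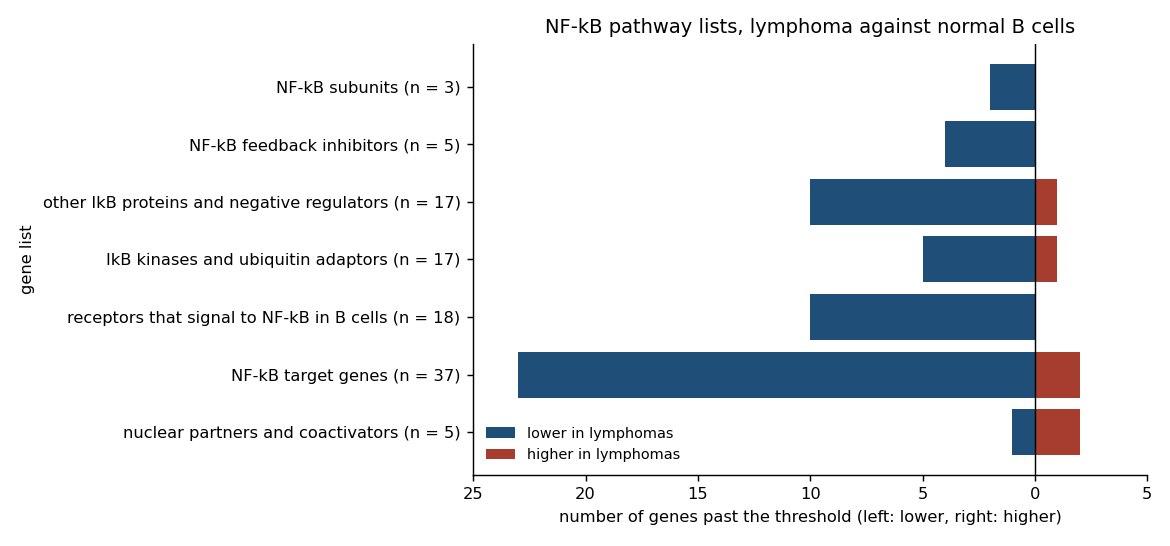
Number of genes past the threshold (x axis) in each NF-kB list (y axis, with the number measured), lower in lymphomas to the left and higher to the right. The target list has 23 lower and 2 higher of 37, and the list of nuclear partners 1 lower and 2 higher of 5.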

How the data were processed

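RNA of 16 samples was measured on 1 exon array each. The deposited log2 values hold 23332 transcript clusters, while log base, probe summary, background treatment and normalization are not stated there. The base was read from the range, 2.51 to 13.5. Per the submitters' processing notes, the software was Partek 6.5 and the build mm8, without the steps they served. A mixed model ANOVA is named in the design text, with no random term, and was not repeated.

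Groups came from sample titles. Genes with a single platform symbol were taken by their brightest cluster (14860 genes), with names updated through the GRCm38.p6 gene table, whose coordinates are printed with the RefSeq promoters alone. Group means were fitted to all arrays with limma 3.58.1 in R 4.3.3, with empirical Bayes variances, two-sided p-values and Benjamini-Hochberg adjustment over all genes. Errors are moderated standard errors, and the number of arrays limits the precision. On simulated data, 2-fold changes in 200 genes were recovered for 86.5% (lymphoma against normal), 92.5% (genotype in lymphomas) and 51.5% (genotype in normal cells). For 1.5-fold changes the shares were 46%, 51.5% and 0.5%. The simulated noise was independent between genes and had the same spread in all groups. It held no narrow array and no outlying lymphoma, so these shares may not hold for the real arrays. Named genes were all members, the 2 genes most like each and, of each list, the 3 largest rises and falls past the threshold. Nkiras1, Nfkbid, Nfkbib, Ppbp, Slc2a1, Ikbkb, Ikbkg, Cd80, Cd86, Ebi3, Ltb and the neighbours of Rel were chosen after their values were seen. So were Fas, Ier3, Traf1 and Bcl2l1. A further gene list is not reported here. The members and lists were chosen with earlier results of these data known. Alternatives covered normalization, centring, array spread and weights, narrow arrays, probe choice, filtering, variance, samples in the fit, a replicate block and leaving out each sample.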

Additional observations from a re-analysis of the deposited data

Results flagged for a closer look

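In groups of 6 lymphomas the gap of the highest or lowest array to its nearest neighbour was set against the range of the group (Dixon's test at the 95% level), in 16 groups of 8 members, where chance gives about 1 in 20. The highest array stood out 3 times, each time p53-246 lymphoma 2. Rel was at 10.785 with a gap of 0.650 of the range, Nfkbie at 5.661 with 0.706 and Tnfaip3 at 6.011 with 0.801. Members of 1 lymphoma are not independent of each other, and the check describes how far an array stands out without testing a cause.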

How the results depend on the processing

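The count of 6 members lower in lymphomas than in normal cells ran from 5 to 7 over the 26 alternatives and was 6 under the replicate block. The 5 came with genes near background removed, where Nfkb2 and Nfkbie were no longer tested and Rela passed (adjusted p = 0.0480, limma). In p53-null and p53-246 cells the count of 6 ran from 4 to 6. No member past the threshold changed sign under any alternative, and between genotypes and for the interaction 0 members passed under each of them. Rela passed in 6 alternatives of the averaged contrast (adjusted p 0.0192 to 0.282 over all), and Rel failed in p53-246 cells without p53-246 normal sample 2, with an adjusted p of 0.0625.

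Same-numbered arrays did not deviate together (r from -0.31 to 0.33 over 6 lymphoma pairs, 2 above 0.1), so the replicate block pairs numbers alone. It changed no call of a member. Over all genes, 2856 in place of 4737 passed in p53-null cells without p53-null normal sample 1. In p53-246 cells 3738 passed, 6180 with array weights and 2418 or 2407 without p53-246 normal sample 1 or 2. Between normal genotypes and for the interaction 0 genes passed in the main fit. This count did not stay at 0 under every setting that left out a normal sample. Such a fit has 1 sample left in a group that is assumed to vary like the others. Without p53-null normal sample 2 the sample left is p53-null normal 1, a narrow array. Near the background cutoff the size of a fall may be understated, and for Nkiras2 this was not tested.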
